A study of Homo sapiens with 6 samples.

Results

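The comparison described here sets cultures at passage 6 against a culture at passage 4, all transfected with the control siRNA and grown with EGF. The cells are hTert-HME1, human mammary epithelial cells immortalised with telomerase, a single line. EGF is the ligand of the receptor EGFR and a main growth signal of such cultures. Passage counts the rounds of replating, so the question is which gene classes differ with the state of the culture when siRNA and medium are held constant. The samples were chosen by their labels for siRNA, medium and passage, and are 3 of the 6 libraries analysed here. At passage 6 there were 2 libraries, labelled replicates A and B, and at passage 4 there was 1, labelled replicate A. The other 3 libraries carry the label of an siRNA against BRCA2, a gene of homologous recombination repair. Of these, 1 was grown with EGF at passage 4 and 2 were grown without EGF at passage 6, and they serve here as side values and as part of the estimate of spread.

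Values are normalised log2 expression values per gene, so sequencing depth per library is unknown and no counting interval can be given. Of 57820 gene rows, 14674 were tested, those whose value, taken out of the log2 scale, averaged at least 10 over the 3 control libraries. Differences below are on the log2 scale, the mean of A and B minus passage 4, and a fold is 2 raised to that difference. A gene is said to rise or fall with passage only where its adjusted p was below 0.05 (limma with Benjamini-Hochberg adjustment, two-sided). The passage 4 group has no replicate, so its spread was taken from the pairs of libraries in the other groups. Whether the 2 passages were cultured and prepared together is not given in the labels, so passage cannot be told apart from culture day or library preparation. A and B differed from each other with an SD of 0.119 over tested genes, against 0.308 for the pair without EGF. Nothing in the labels says that A and B came from separate cultures, so the spread behind the p-values may be a technical one.

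BRCA2, the gene targeted in other libraries, was at 10.19 at passage 4 and at 11.25 in A and 11.24 in B. It was at 10.88 in the library labelled BRCA2 siRNA at passage 4, above the control of the same passage. A lower BRCA2 under that label is thus not seen at passage 4. In the 2 libraries without EGF, which also carry the label of BRCA2 siRNA, it was at 11.15 and 10.89, below A and B. The effect of the siRNA on BRCA2 was not tested. Over tested genes the SD of the differences from A was 0.487 for the passage 4 library labelled control siRNA and 0.291 for the one labelled BRCA2 siRNA, and from B it was 0.511 and 0.321. These values do not tell whether the 2 labels were exchanged. Every value given below for passage 4 is that of the library labelled control siRNA, and each direction holds by that label.

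Dividing cells copy DNA with a helicase and polymerases whose genes are switched on by E2F factors at the start of S phase, and then express a separate mitotic set. Growing cells also hold many ribosomes, and the messages of ribosomal proteins share a pyrimidine-rich start through which growth signals set their translation. Membrane growth calls on the sterol pathway, which is driven by SREBP factors. Cultured mammary epithelium of this kind keeps a basal character, with the keratins KRT5 and KRT14 and the transcription factor p63.

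Many genes of DNA replication, mitosis, homologous recombination and cholesterol synthesis rose at passage 6, and nearly all of those of cytosolic ribosomal proteins fell, with several translation factors. These calls rest on 1 passage 4 library, the one labelled control siRNA. Medians of the rising lists were 0.52 to 1.01 against it, and 0.16 to 0.26 against the library labelled BRCA2 siRNA at passage 4. For ribosomal proteins the medians were -0.73 and -0.38. Of all tested genes 2986 passed the test, which is 20.3%. They split into 1148 genes that rose, 7.82% of those tested, and 1838 that fell, 12.5%. The median difference over all tested genes was -0.03, with 6944 genes above 0 and 7730 below. The share of risen genes among the calls was 38.4%, and it was 54.4% with each library centred on its median and 49.5% with libraries centred by protein length. None of these calls held with A and B averaged into 1 library, without A or without B, where 2780, 2964 and 2687 genes were at an unadjusted p under 0.05 (limma). Over the libraries with EGF alone, where A and B give the only estimate of spread, 9834 genes passed. Every count of calls below therefore rests on A and B entering as 2 replicates.

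**Figure D1:**
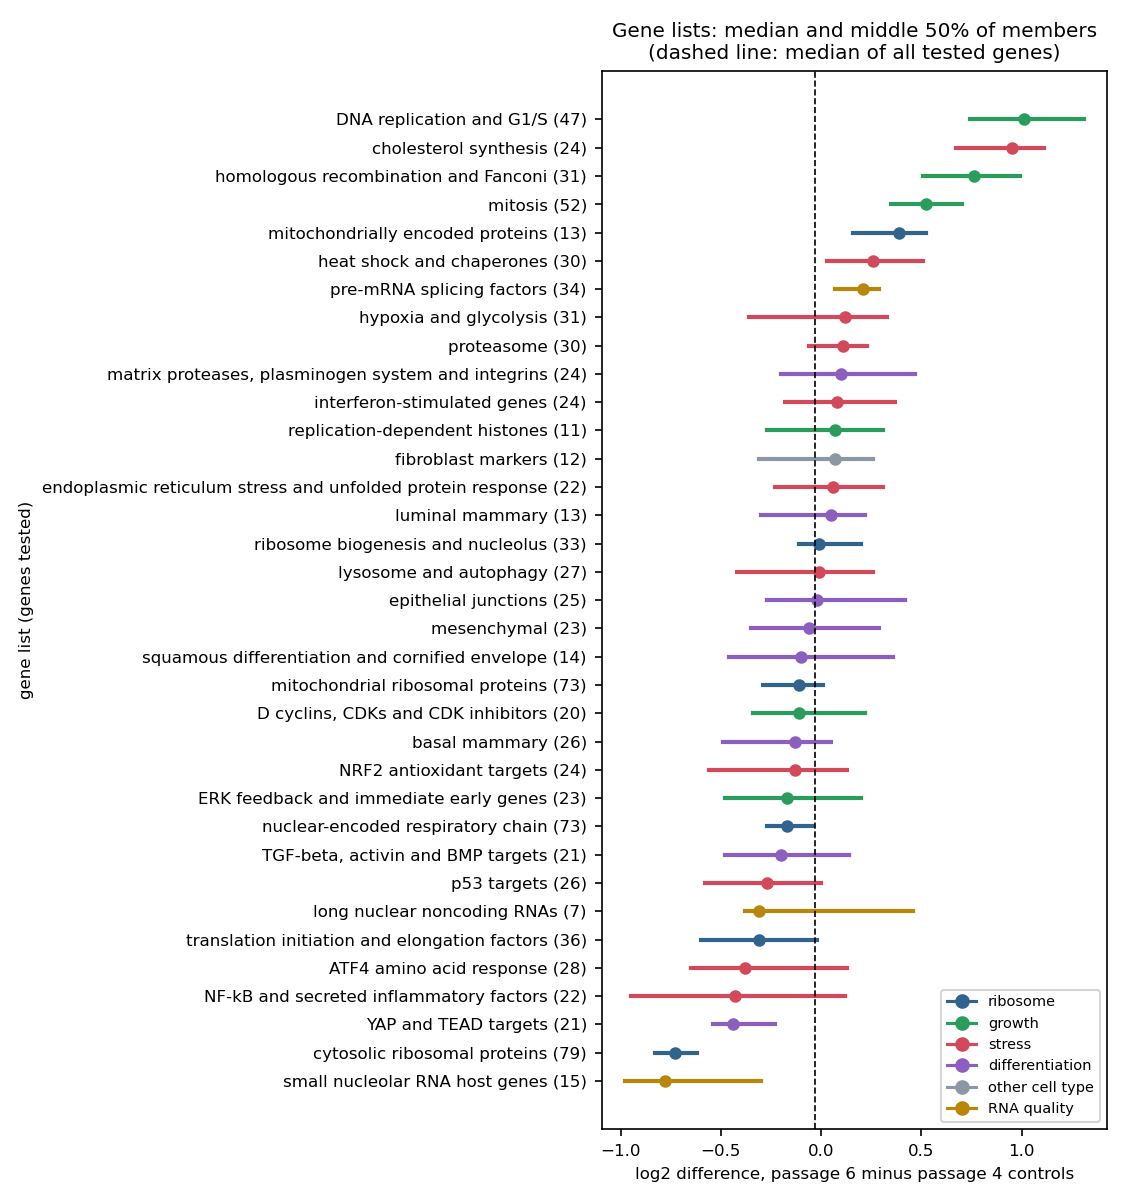
Median log2 difference (points) and middle 50% of members (bars) of the gene lists with at least 7 tested members, passage 6 controls minus passage 4 control, coloured by class. DNA replication genes have the highest median (1.01), and cytosolic ribosomal proteins (-0.73) and small nucleolar RNA host genes (-0.78) stand lowest, beside -0.03 for all tested genes.

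All 47 tested genes of DNA replication and the G1/S transition had a difference above 0, with a median of 1.01, and 29 of them (61.7%, beside 7.82% of all tested genes) rose while 0 fell. Of the replicative helicase, the subunits MCM3, MCM4, MCM5 and MCM6 rose, while MCM2, with a difference of 1.25, and MCM7, with 0.81, did not pass the test. MCM6 was at 10.07 at passage 4, 11.88 in A and 11.92 in B. Both passage 6 values lie above the passage 4 value by far more than they differ from each other, and the rise was 1.83 ± 0.36 (standard error, adjusted p = 0.0357, limma), a fold of 3.55. For MCM6 the pair without EGF lay farther apart than A and B, at 11.72 and 10.85. The library labelled BRCA2 siRNA at passage 4 was at 11.64, near A and B. MCM10, which helps to activate the helicase, rose by 1.90, from 7.87 to 9.74 and 9.81. CLSPN encodes claspin, a checkpoint mediator that travels with the fork, and rose by 2.00, from 9.02 to 10.96 and 11.09. The cohesin acetyltransferase gene ESCO2, which acts in S phase, rose by 1.73.

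Genes that supply nucleotides rose as well. RRM2, the regulated subunit of ribonucleotide reductase, went from 11.66 to 13.16 and 13.18, and thymidylate synthase (TYMS) from 9.36 to 10.45 and 10.43. E2F1, itself a driver of this programme, rose by 1.43, at low values of 6.04, 7.46 and 7.49. CCNE2, a cyclin of S phase entry, had the largest difference of the list, 2.22 ± 0.61 (standard error), from 6.06 to 8.24 and 8.32, but did not pass the test (adjusted p = 0.0633, limma). Its values in the libraries without EGF were 7.79 and 6.30, and that pair enters the estimate of its spread. PCNA, the sliding clamp, was likewise at 11.03, 12.21 and 12.23 with an adjusted p of 0.101 (limma). The licensing factor CDT1, at 8.33, 8.51 and 8.63, and the histone message binder SLBP, with a difference of 0.01, did not pass the test either.

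Mitosis genes had a median of 0.52, with 51 of 52 tested above 0. Of the 52 tested, 27 (51.9%, beside 7.82% of all tested genes) rose while 0 fell. MKI67, the proliferation antigen Ki-67, was at 15.12 at passage 4, 16.13 in A and 16.23 in B, a rise of 1.06 ± 0.15 (standard error, adjusted p = 0.0243, limma). CENPI and SPC25, both of the kinetochore, rose by 1.29 and 1.18. KIF11, the motor that separates the spindle poles, went from 12.42 to 13.25 and 13.30. CDK1, the mitotic kinase, rose by 0.53 and its cyclin CCNA2 by 0.68. Several classic mitotic genes did not pass the test. PLK1 was at 11.08, 11.22 and 11.27, CCNB1 at 12.92, 13.39 and 13.41, and the ubiquitin-conjugating enzyme UBE2C at 10.93, 10.83 and 10.81. The G1/S list thus had a median difference of 1.01 beside 0.52 for mitosis, and the difference between the lists was not tested. In bulk cultures a larger share of cycling cells and more of each message per cell cannot be told apart.

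Promoters of these genes are shown because the members moved together and carry short motifs that a script can count. The stretches end at the base before the transcription start, are written 5′ to 3′ on the strand of the gene, and come from RefSeq (GRCh38.p14, a later build than that of the deposited files). Capitals mark CCAAT or its reverse complement ATTGG (the motif of NF-Y), TTTGGCGC and TTTCGCGC or their reverse complements (E2F forms, which overlap in TTTGGCGCGAAA), and TTTGAA or its reverse complement TTCAAA (the cell cycle homology region). MCM6 lies at chr2:135876444-135876603 on the minus strand, MKI67 at chr10:128126424-128126533 on the minus strand, KIF11 at chr10:92593020-92593129 on the plus strand, and HSD17B7 of the cholesterol pathway at chr1:162790592-162790701 on the plus strand.
MCM6: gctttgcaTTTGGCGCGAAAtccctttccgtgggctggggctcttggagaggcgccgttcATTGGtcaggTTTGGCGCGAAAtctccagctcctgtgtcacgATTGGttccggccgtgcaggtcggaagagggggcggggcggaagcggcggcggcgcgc
MKI67: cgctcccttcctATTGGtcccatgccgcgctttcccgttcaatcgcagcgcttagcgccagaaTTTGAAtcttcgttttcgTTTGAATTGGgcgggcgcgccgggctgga
KIF11: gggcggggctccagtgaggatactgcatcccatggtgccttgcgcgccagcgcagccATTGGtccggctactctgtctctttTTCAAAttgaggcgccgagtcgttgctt
HSD17B7: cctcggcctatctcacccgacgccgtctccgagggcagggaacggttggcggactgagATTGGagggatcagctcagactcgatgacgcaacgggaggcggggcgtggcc
These 4 were picked for the motifs after their values were seen.

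Over the RefSeq windows of 250 bases before to 50 after the start, both strands searched, TTTGAA stood in 33 of 45 mitosis promoters (73.3%), in 1 of 39 DNA replication promoters (2.56%) and in 15.2% of all 35116 promoters. TTTGGCGC stood in 9 of the 39 replication promoters (23.1%) against 0.652% of all, and TTTCGCGC in 5 (12.8%) against 0.515%. For CCAAT the shares were 73.3% in mitosis, 53.8% in replication, 83.3% in cholesterol synthesis (15 of 18) and 34.6% of all promoters. Promoters of cytosolic ribosomal protein genes held CCAAT at 33.3% (21 of 63) and neither E2F form. The replication and mitosis lists thus differ in the motifs of their promoters although both were higher at passage 6. List shares count 1 promoter per tested gene, while the share of all promoters takes every promoter, also of genes not tested here. A match describes the letters and is no evidence of a bound factor.

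Homologous recombination and Fanconi genes repair broken and crosslinked DNA and are made largely in S phase. They had 27 of 31 above 0 and a median of 0.76. Of the 31 tested, 18 (58.1%, beside 7.82% of all tested genes) rose while 0 fell. BRCA1 was at 10.60 at passage 4 and at 11.87 and 11.85 at passage 6, a rise of 1.26 ± 0.14 (standard error, adjusted p = 0.0229, limma). BRCA2 rose by 1.05, XRCC2 by 1.33 and the exonuclease EXO1 by 1.28. FANCD2, which is monoubiquitinated at crosslinks, rose by 1.0. The kinase ATM (12.28, 12.28 and 12.30), the BRCA2 partner PALB2 (10.03, 9.99 and 9.96) and the resection factor RBBP8 (12.25, 12.34 and 12.33) were nearly level across the 3 libraries. FANCE, of the Fanconi core complex, had a difference of -0.81, at 9.16, 8.35 and 8.35, and did not pass the test (adjusted p = 0.0549, limma).

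Of 20 tested D cyclins, cyclin-dependent kinases and their inhibitors, 3 rose and 2 fell, with a median of -0.11. That share of calls, 25%, is near the 20.3% of all tested genes. RBL1, a pocket protein that is itself an E2F target, rose by 1.26, CDKN2C, the CDK4 and CDK6 inhibitor p18, by 1.02 and CDK2 by 0.86. MXI1, which opposes MYC, fell by 1.56, from 10.69 to 9.23 and 9.03, and CDKN1A, the p21 inhibitor, fell by 0.73, from 11.35 to 10.61 and 10.64. MYC was at 13.41, 12.91 and 12.90 and the D-type cyclin CCND1 at 11.75, 12.36 and 12.39, and neither passed the test. Replication-dependent histones were measured in libraries of bead-purified mRNA although most of their messages lack a poly(A) tail. They had a median of 0.07 over 11 tested members, with 2 that rose (18.2%, beside 7.82% of all tested genes) and 0 that fell.

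**Figure D2:**
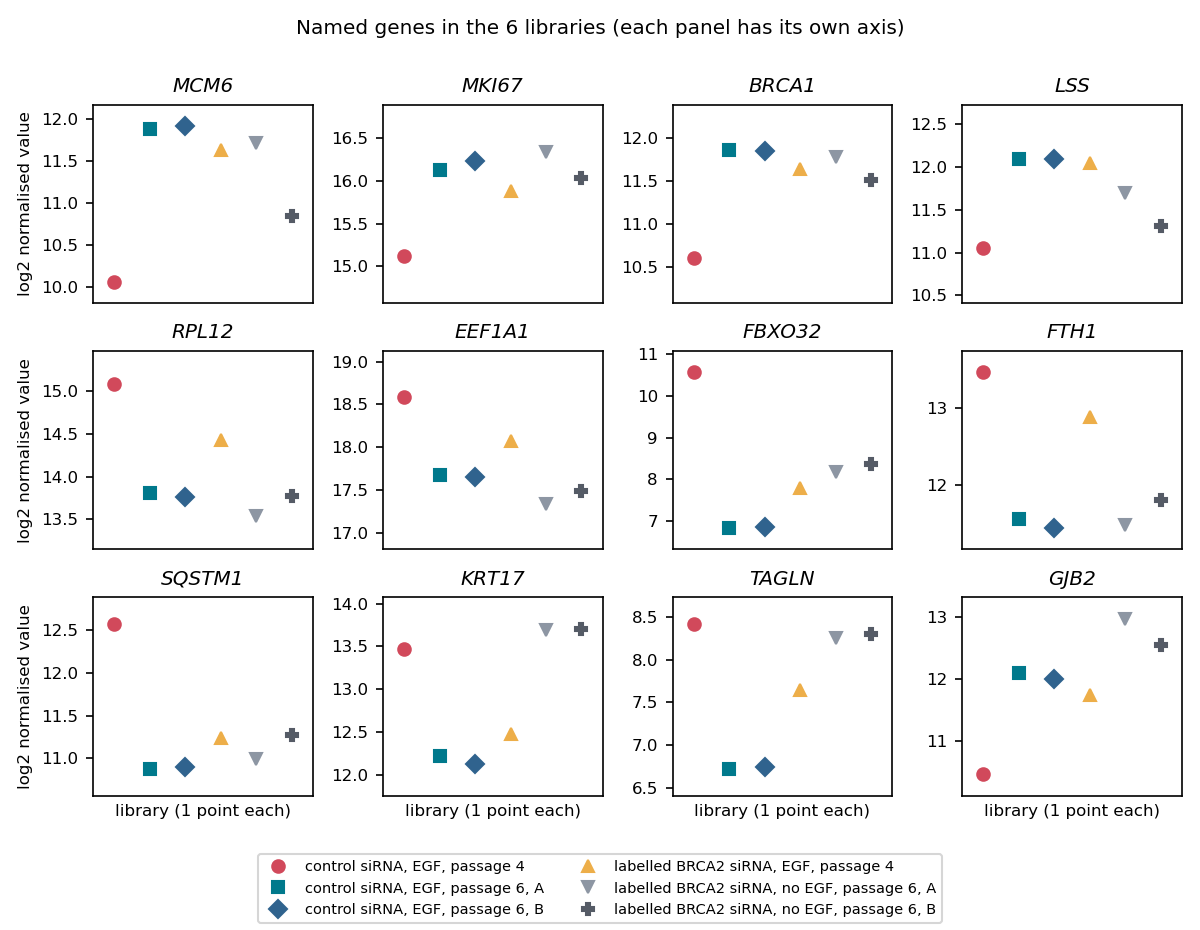
Normalised log2 values of 12 named genes in each of the 6 libraries, 1 point per library, with an axis of its own for each gene. In the upper row passage 4 is the lowest point of each gene (MCM6 10.07, MKI67 15.12, BRCA1 10.60, LSS 11.05), and in RPL12, EEF1A1, FBXO32, FTH1, SQSTM1 and TAGLN it is the highest.

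Every tested gene of cholesterol synthesis had a difference above 0. The median of the 24 genes was 0.95, and 10 of them (41.7%, beside 7.82% of all tested genes) rose while 0 fell. LSS, lanosterol synthase, was at 11.05 at passage 4 and at 12.09 in both A and B, a rise of 1.04 ± 0.17 (standard error, adjusted p = 0.0286, limma). SC5D, a sterol desaturase, rose by 1.06, from 11.63 to 12.67 and 12.71. HSD17B7, a sterol reductase, went from 9.07 to 10.38 and 10.36 at passage 6. HMGCS1, the synthase at the head of the pathway, had 13.31, 14.86 and 14.81, and the sterol sensor INSIG1 12.08, 13.44 and 13.48, and neither passed the test. The pair without EGF differed in these genes, at 13.94 and 12.58 for HMGCS1 and 13.03 and 11.60 for INSIG1. SREBF2, the factor that drives the pathway, was at 12.60, 12.64 and 12.66. ELOVL6, a fatty acid elongase outside the list, was among the 12 named genes of largest rise, at 10.72, 12.56 and 12.57.

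Cytosolic ribosomal protein genes were lower at passage 6. Of 79 tested, 76 were below 0, the median was -0.73, which is 1.66-fold higher at passage 4, and 74 (93.7%, beside 12.5% of all tested genes) fell while 0 rose. RPL12, of the large subunit stalk, was at 15.08 at passage 4, 13.81 in A and 13.76 in B, and fell by 1.30 ± 0.13 (standard error, adjusted p = 0.0229, limma). RPL13A fell by 1.05, from 15.19 to 14.16 and 14.14, and RPS2 by 0.97, from 15.28 to 14.36 and 14.26. The middle 50% of members lay between -0.83 and -0.62, a narrow band beside -0.34 to 0.27 for all tested genes. The 3 members above 0 were RPL17 (6.32, 6.80 and 6.78), RPS10 (5.32, 5.72 and 5.62) and RPL36A (8.22, 8.36 and 8.53), which are far below the list's median level of 14.16 at passage 4. Ribosomal proteins have many near-identical pseudogene copies and some overlapping read-through genes, so counting may have lost reads of such members, and their values are uncertain. Summed as 2 raised to the value, the list made up 5.14% of the normalised total at passage 4, 3.22% in A and 3.14% in B.

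Translation factors were lower in part. Of 36 tested, 16 fell (44.4%, beside 12.5% of all tested genes) and 0 rose, with a median of -0.31. The elongation factors fell, EEF1A1 by 0.93 from 18.59 to 17.67 and 17.65, and EEF2 by 0.71 from 16.42 to 15.71 in both A and B. EIF1, which guards start codon choice, fell by 1.22, EIF4B, a helicase cofactor, by 0.90, and the poly(A)-binding protein PABPC1 by 0.59. TPT1, an abundant growth-associated protein whose message starts like those of ribosomal proteins, fell by 1.14. The cap-binding protein EIF4E (11.91, 12.08 and 12.13), the scaffold EIF4G1 (14.76, 15.16 and 15.21) and EIF5 (12.79, 13.40 and 13.38) had differences above 0 that did not pass the test.

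Genes that build ribosomes had few calls. Of 33 tested genes of ribosome biogenesis and the nucleolus, 2 rose (6.06%, beside 7.82% of all tested genes) and 0 fell, with a median of -0.01. UTP20 and NOP56, of the small subunit processome and the box C/D particles, rose by 0.89 and 0.43. Nucleolin (NCL) was at 15.82, 16.00 and 16.05, fibrillarin (FBL) at 11.48, 11.24 and 11.18, and NPM1 at 16.65, 16.35 and 16.31, and none of them passed. Mitochondrial ribosomal proteins had a median of -0.11 over 73 tested, with 2 that rose and 8 that fell. The nuclear-encoded respiratory chain had -0.17 over 73, with 1 and 7. Shares of calls in these lists were 13.7% and 11%, below the 20.3% of all tested genes. Among 13 mitochondrially encoded messages 12 were above 0, with a median of 0.39. MT-ND5 and MT-ND4L rose, by 0.40 and 0.52 (15.4%, beside 7.82% of all tested genes), and 0 fell.

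**Figure D3:**
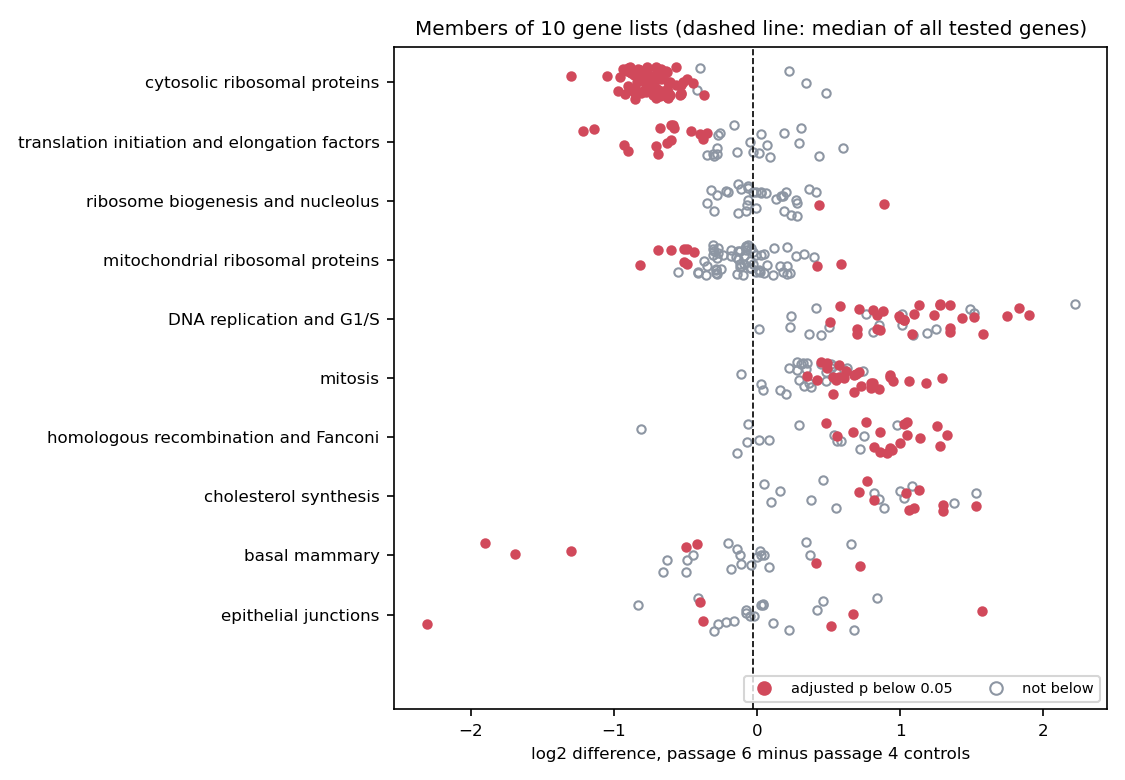
Log2 difference, passage 6 minus passage 4 controls, of each tested member of 10 gene lists, spread vertically to part the points, with filled points at an adjusted p below 0.05 (limma). Ribosomal proteins lie in a band near -0.73 with 3 members above 0, while replication genes spread from 0.01 to 2.22 and basal and junction genes lie on both sides of 0.

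Other values moved beside the ribosomal proteins. Small nucleolar RNA host genes, whose spliced transcripts often start like ribosomal protein messages and are degraded once translated, had a median of -0.78 over 15 tested. Among them 5 fell (33.3%, beside 12.5% of all tested genes) and 0 rose. SNHG5 was at 12.23 at passage 4, 11.32 in A and 11.21 in B, and SNHG29 fell by 1.05. The length of the encoded protein also went with the differences. In the lowest of 10 bins of protein length the median difference was -0.13, or -0.11 without the ribosomal proteins, and in the highest it was -0.01, while the 51 ribosomal proteins of that lowest bin had -0.73. Centred by protein length, the ribosomal protein median was -0.58. Splicing factors, listed as a view of RNA processing, had 27 of 34 above 0 and a median of 0.21. Of the 34 tested, 6 rose (17.6%, beside 7.82% of all tested genes) and 0 fell. HNRNPM rose by 1.18 and SRSF2 by 1.17. Of 7 long nuclear noncoding RNAs TUG1 rose by 0.45 and OIP5-AS1 fell by 0.48 (28.6% called, beside 20.3% of all tested genes). MALAT1 was at 16.12, 15.77 and 15.79. RNA integrity is not given in the labels, and its part in these values was not tested.

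**Figure D4:**
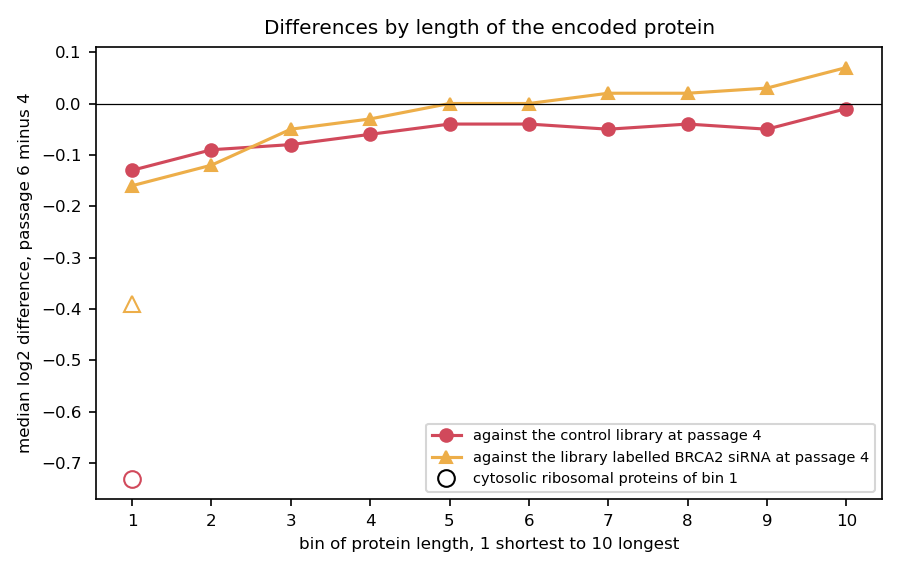
Median log2 difference in 10 equal-sized bins of protein length, from 1 (shortest) to 10 (longest), for passage 6 against each passage 4 library, with cytosolic ribosomal proteins of bin 1 as open points. Bin medians run from -0.13 to -0.01 against the control library, and the open circle at -0.73 lies far below its bin.

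Set against the library labelled BRCA2 siRNA at passage 4, the same passage 6 libraries gave other sizes. The 2 comparisons share A and B, so they are not independent, and the values stand side by side. The ribosomal protein median was -0.73 against the control and -0.38 against the library labelled BRCA2 siRNA. For DNA replication the medians were 1.01 and 0.17, for mitosis 0.52 and 0.24, for homologous recombination 0.76 and 0.16, and for cholesterol synthesis 0.95 and 0.26. Small nucleolar RNA host genes had -0.78 and 0.16, and YAP targets -0.44 and 0.17, values of opposite sign. MCM6 was at 11.64 in that library, near A and B, while RPL12 was at 14.43, between passage 4 control (15.08) and A and B. In the ribosomal protein, DNA replication, mitosis, homologous recombination and cholesterol lists the median of the library labelled control siRNA thus lay farther from A and B than that of the other. Replication-dependent histones had 0.07 and -0.26, and immediate early and ERK feedback genes -0.17 and -0.18.

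**Figure D5:**
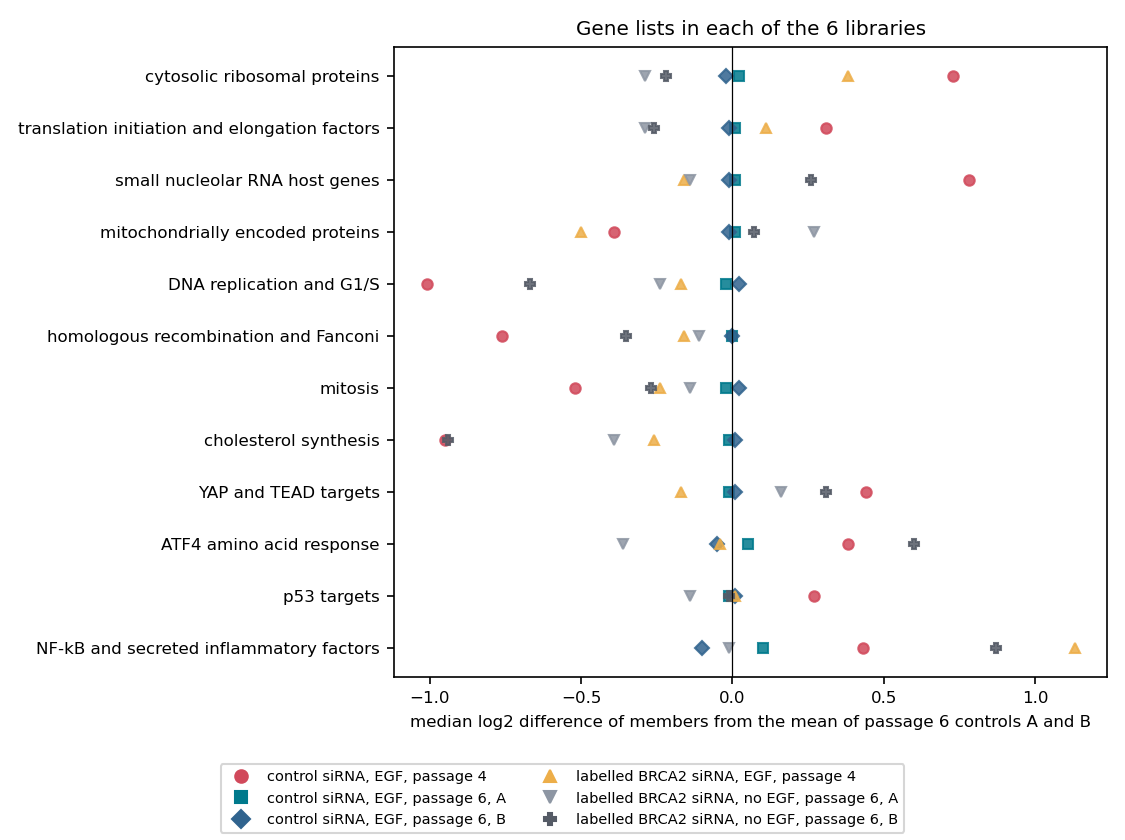
Median log2 difference of list members from the mean of A and B in each library, 1 symbol per library. The library labelled control siRNA at passage 4 lies farthest left for DNA replication (-1.01) and farthest right for cytosolic ribosomal proteins (0.73), and library B without EGF lies beside it for cholesterol synthesis (-0.94 against -0.95).

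The largest fall among the named genes was that of FBXO32. FBXO32, the ubiquitin ligase atrogin-1, was at 10.57 at passage 4, 6.83 in A and 6.85 in B, and fell by 3.72 ± 0.12 (standard error, adjusted p = 0.0201, limma), so it was 13.2-fold higher at passage 4. It was at 7.80 in the library labelled BRCA2 siRNA at passage 4 and at 8.17 and 8.36 without EGF. KLHL24, a substrate adaptor of a ubiquitin ligase that controls keratin turnover, fell by 2.15, and CREBRF, a regulator of the CREB3 stress factor, fell by 2.11. PPP1R3B, which targets a phosphatase to glycogen, went from 11.38 to 8.62 and 8.52. Some autophagy genes fell as well. The receptor SQSTM1 (p62) fell by 1.68, from 12.57 to 10.88 and 10.90, GABARAPL1 fell by 1.98 and WIPI1 fell by 1.64, while the list of 27 lysosome and autophagy genes had a median of -0.01, with 1 that rose and 3 that fell (14.8%, beside 20.3% of all tested genes).

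Both ferritin genes, which store iron, fell. Ferritin heavy chain (FTH1) was at 13.47 at passage 4 and at 11.56 and 11.44 at passage 6, and the light chain (FTL) at 13.35, 11.45 and 11.35, differences of -1.97 and -1.95. The aldo-keto reductases AKR1C1 and AKR1C2, which are close copies of each other, fell by 1.43 and 1.26. Among other targets of the antioxidant factor NRF2, GCLM, of glutathione synthesis, rose by 0.97, and the quinone reductase NQO1 was at 11.68, 11.78 and 11.82. The list of 24 genes had a median of -0.13, with 3 that rose and 6 that fell (37.5%, beside 20.3% of all tested genes). Ferritin genes have processed copies in the genome, so their values carry the same doubt as those of ribosomal proteins.

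The p53, ATF4, heat shock and endoplasmic reticulum stress lists had shares of calls between 3.57% and 10%, below the 20.3% of all tested genes. Of 26 p53 targets 19 were below 0, the median was -0.27, and 2 fell, CDKN1A and PHLDA3, the latter by 0.89. GDF15 (8.82, 7.46 and 7.28) and GADD45A (13.26, 11.99 and 11.91) had large differences that did not pass. The ATF4 amino acid response had 20 of 28 below 0 and a median of -0.38, but 0 fell and 1 rose (VLDLR, by 0.94). DDIT3, the factor CHOP, was at 8.34, 6.56 and 6.45 (adjusted p = 0.0991, limma), and at 6.49 and 8.05 in the pair without EGF. Heat shock genes and chaperones had 24 of 30 above 0 and a median of 0.26, with HSP90AA1, at 15.75, 16.90 and 16.89, and CHORDC1 rising and CRYAB falling by 1.54. HSPA1A and HSPA1B, near-identical copies, had differences of 1.57 and 1.5 with adjusted p of 0.153 and 0.156 (limma). Endoplasmic reticulum stress genes had a median of 0.06 over 22, with SYVN1 falling by 0.48, and the chaperone HSPA5 was at 15.93, 15.65 and 15.67. Proteasome subunits, which degrade tagged proteins, had a median of 0.11 over 30. PSMD12 rose by 0.52 (3.33%, beside 7.82% of all tested genes) and 0 fell.

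Of 31 hypoxia and glycolysis genes 1 rose and 7 fell, with a median of 0.12. In either direction 25.8% were called, beside 20.3% of all tested genes, where 7.82% rose and 12.5% fell. NDRG1, a stress and differentiation response gene, fell by 1.52, from 15.58 to 14.06 ± 0.09 (SD, n = 2), and the peptide adrenomedullin (ADM) fell by 1.21. Glucose entry genes fell in part, SLC2A3 by 0.73 and hexokinase HK2 by 0.52, while LDHA was at 15.74, 16.29 and 16.27 and did not pass. Of 22 NF-kB genes and secreted inflammatory factors 14 were below 0, and 1 rose and 1 fell (9.09%, beside 20.3% of all tested genes). The interleukin IL32 fell by 1.81, and the chemokine CXCL1 rose by 0.97, from 10.34 to 11.44 and 11.18. CXCL1 was at 13.69 in the library labelled BRCA2 siRNA at passage 4, and the list's median was -0.43 against the control and -1.13 against that library. Interferon-stimulated genes had a median of 0.08 over 24, with OAS3 and SAMD9 rising by 1.14 and 1.08 and STAT2 falling by 0.88. These calls made up 12.5% of the list, beside 20.3% of all tested genes.

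Immediate early and ERK feedback genes, which report on growth factor signalling, had a median of -0.17 over 23 tested. Of these 4 fell (17.4%, beside 12.5% of all tested genes) and 0 rose, and in either direction 20.3% of all tested genes were called. FOSB, of the AP-1 family, was at 8.33 at passage 4 and at 5.74 and 5.77 at passage 6, and fell by 2.57. The phosphatases DUSP4 and DUSP5, which turn ERK off, fell by 1.13 and 0.98, and the factor ETV4 by 0.52. DUSP6, another ERK phosphatase, was at 11.78, 12.40 and 12.36, and EGR1 at 10.78, 10.74 and 10.47, and neither passed. EGFR itself was at 15.82, 15.34 and 15.39, with an adjusted p of 0.222 (limma).

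Basal epithelial markers were abundant at both passages. Among the basal keratins, KRT5 was at 16.90, 16.97 and 16.90 and KRT14 was at 16.71, 16.71 and 16.72. TP63 was at 13.13, 12.53 and 12.41 and did not pass (adjusted p = 0.127, limma). Within the basal list 2 of 26 rose and 5 fell (26.9%, beside 20.3% of all tested genes), with a median of -0.13. KRT17, a keratin of activated epithelium, fell by 1.30, from 13.47 to 12.22 and 12.13. TAGLN, an actin-binding protein of contractile cells, fell by 1.69, from 8.42 to 6.72 and 6.75, and the neurotrophin receptor NGFR by 1.90. The laminin receptor subunit ITGA6 rose by 0.72. KRT17 and TAGLN were also high without EGF, at 13.69 and 13.70 and at 8.25 and 8.30. Luminal markers had a median of 0.05 over 13 tested of 26 members. Among them the simple keratin KRT8 fell by 0.51 and ANXA9 rose by 0.76 (15.4% called, beside 20.3% of all tested genes). Some luminal members were abundant too. Over all libraries KRT7 lay between 14.78 and 15.12, AREG between 13.48 and 14.29 and KRT8 between 10.66 and 11.24. Others were low, such as FOXA1 between 2.81 and 3.77, and EPCAM, KRT19 and PGR were below the filter.

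Cornified envelope genes, the products of squamous differentiation, were mostly too low to test, with 14 of 36 past the filter. Of those 4 fell (28.6%, beside 12.5% of all tested genes) and 0 rose. The differences were -1.89 for SPRR2D, -1.22 for SBSN, -0.76 for SPRR2A and -0.51 for the keratin KRT10, while involucrin (IVL) was at 6.55, 6.57 and 6.61. SPRR2 genes are near-identical to each other, so their values are uncertain. Among 25 junction genes 3 rose and 3 fell (24%, beside 20.3% of all tested genes), with a median of -0.02. The connexin gene GJB2 rose by 1.57, from 10.47 to 12.04 ± 0.07 (SD, n = 2), and the gap junction gene GJA1 by 0.52, while NECTIN4 fell by 2.31 and desmoplakin (DSP) by 0.38. E-cadherin (CDH1) was at 7.59, 7.60 and 7.42. Mesenchymal genes had 3 that rose and 5 that fell of 23 (34.8%, beside 20.3% of all tested genes). Among them vimentin (VIM) fell by 0.45, fibronectin (FN1) by 0.47 and the repressor SNAI2 by 0.79, while N-cadherin (CDH2) rose by 0.53.

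YAP and TEAD targets, which report on cell spreading and density, had 18 of 21 below 0 and a median of -0.44. Among them 5 fell and 1 rose (28.6%, beside 20.3% of all tested genes). The matricellular gene CCN1 fell by 1.0, from 15.05 to 14.06 and 14.05, ANKRD1 by 0.85 and CCN2 by 0.48, while WWTR1, which encodes the coactivator TAZ, rose by 0.67. TGF-beta, activin and BMP targets had a median of -0.20 over 21. Of these 1 rose and 2 fell (14.3%, beside 20.3% of all tested genes). TGFBR2, the type II receptor, rose by 0.60, and ID3 and CCN2 fell. In the list of matrix proteases, the plasminogen system and integrins 3 rose and 1 fell of 24 (16.7%, beside 20.3% of all tested genes). Tissue plasminogen activator (PLAT) rose by 1.07, from 10.55 to 11.60 and 11.64, and the collagen receptor subunit ITGA2 by 0.86.

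Signalling genes outside the lists led the rises. RGS4, which shuts off G protein signals, was at 5.44 at passage 4, 7.83 in A and 8.08 in B, and rose by 2.51 ± 0.24 (standard error, adjusted p = 0.0229, limma), a fold of 5.71. It was at 5.82 and 5.36 without EGF. S1PR3, a receptor of sphingosine 1-phosphate, rose by 2.13, the nuclear receptor NR2F1 by 2.09, the lipopolysaccharide receptor TLR4 by 1.85, the intracellular factor FGF14 by 1.82 and the adhesion receptor ADGRF1 by 1.71. On the falling side stood the noncoding DIRC3 (-3.17), SAMSN1 (-2.78), the secretory chaperone SCG5 (-2.39), the heparan sulfate sulfotransferase HS3ST2 (-2.32), the steroid dehydrogenase HSD17B2 (-2.11) and the lipoxygenase ALOX15B (-2.10). In all 24 genes named for the size of their change, A and B lay on the same side of passage 4, as the rule for naming required.

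Markers of blood cells were low, while several fibroblast markers were well measured. None of 14 haematopoietic markers passed the filter, and 6 of them were listed at 0 in all libraries, among them CD3E and HBB. Of 10 endothelial markers 2 were tested and CDH5 was listed at 0. KDR, a receptor of VEGF, fell by 1.96, from 10.07 to 8.04 and 8.19, and TEK was at 4.52, 4.27 and 4.19, so the summed level of the list was 1099 at passage 4 and 282 and 310 at passage 6. The fibroblast marker COL5A1 was between 10.25 and 11.84 over the 6 libraries and COL3A1 between 9.07 and 11.56. Fibroblast markers had 12 of 14 tested and a summed level of 4375 at passage 4 and 4183 and 4701 at passage 6. Of the 12 tested, 7 were above 0 and 5 below, with a median of 0.07. POSTN and DCN fell by 1.01 and 0.73 (16.7%, beside 12.5% of all tested genes), and 0 rose. Adipocyte markers had 3 of 9 tested, with a summed level of 818 against 401 and 387 and ADIPOQ listed at 0, and PPARG, the nuclear receptor, fell by 1.51. The part of other cell types in the results was not tested.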

How the data were processed

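Messenger RNA of 6 hTert-HME1 libraries was sequenced with a Script-seq kit after bead purification, per the labels' protocols. The authors deposited 1 table of normalised log2 values with 57820 Ensembl gene rows. The submitters' processing notes name TopHat2 2.0.11, DESeq2 and hg19. Which tool counted reads, and the annotation and transformation, is not given in the sources used here. Values run from -1.98 to 19.93, and 25986 rows are 0 in all libraries. Depth is unknown, and differences of low genes may be understated.

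Genes averaging at least 10 over the 3 control libraries, out of the log2 scale, were fitted with limma 3.58.1 (R 4.3.3; lmFit, eBayes with trend and robust prior) over all 6 libraries, 1 level per siRNA, medium and passage, with 2 residual degrees of freedom and Benjamini-Hochberg adjustment. The procedure was tested on simulated data. Of 1129 entries in 38 gene lists, 1019 were tested. Lists received no set test. The comparison and the lists were chosen with earlier results of these data known. Named are BRCA2, the 12 highest and 12 lowest called genes with a mean of at least 50, and the 3 largest differences per list with a mean of at least 20. A few of these genes are not reported here. Further list members are named for their role after their values were seen. Groups came from the labels. Alternatives changed the samples, scaling, filter and prior. Protein lengths come from GENCODE 29, for 82.3% of tested genes. Values were summarised in Python with pandas.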

Additional observations from a re-analysis of the deposited data

How the results depend on the processing

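Of the 15 alternatives tried, none changed the sign of any of the 129 named genes it tested (121 with the filter raised, 122 centred by protein length, all in the others). Of 36 list medians 9, each at most 0.11 from 0 as reported, changed sign in at least 1 alternative, 4 of them with libraries median centred, 5 after quantile normalisation and 7 centred by protein length. Ribosome biogenesis (-0.01) was at 0.08, 0.08 and 0.12 in these 3 scalings, lysosome and autophagy (-0.01) at 0.07, 0.10 and 0.08, epithelial junctions (-0.02) at 0.06, 0.03 and 0.08, and mesenchymal genes (-0.06) at 0.02, 0.04 and 0.02. The count of calls was 9830 with the 3 control libraries only (4392 higher, 5438 lower) and 9834 without the libraries without EGF (4393 and 5441). It was between 9822 and 9834 without replicate A or B of the group without EGF (4390 to 4397 higher, 5432 to 5437 lower). It was 0 with A and B averaged, without control replicate A or without control replicate B, and 0 with no filter on low values, where 7341 of 31834 genes were at an unadjusted p under 0.05 (limma). All 93 called genes among the 129 named lost their call in these 4 settings, and adjusted p of FBXO32, 0.0201 as reported, was then between 0.0642 and 0.0697. With A and B averaged or 1 of them left out, fewer samples estimate the spread, and with no filter the cause was not tested. A group left with 1 library is assumed to vary like the others. With the replicate letter as a block (replicate block), 2758 genes passed, 1152 higher and 1606 lower, 8 named genes lost their call and 13 gained it. The groups compared share only the letter A, so the block does not pair them. Lower calls were 1212 after quantile normalisation and 1088 centred by protein length, out of 12077 genes with a length. The ribosomal protein median of -0.73 was -0.63 after quantile normalisation, -0.64 median centred and -0.58 centred by length. The squamous median of -0.10 was -0.23 with the filter raised to a mean of 50. In that setting the luminal median of 0.05 was -0.30 and the fibroblast marker median of 0.07 was -0.25, the largest changes of sign. Scaling moved the median over all genes from -0.03 to at most 0.05. In all, 16 list medians moved by more than the spread between replicates in at least 1 alternative, 10 of them median centred and 11 centred by protein length. Depth is not known, so what it limits could not be computed.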

Other observations

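Genes switched on by FOXO factors, which growth factor signalling keeps out of the nucleus, formed a group not described above. Counted with them are the genes of the factors FOXO1 (-0.59), FOXO3 (-0.47) and FOXO4 (-0.56). The 24 members were listed after the falls of FBXO32 and KLHL24 were seen, so the group carries no test. Both genes are counted in it, at -3.72 and -2.15, so the count and median in part restate that choice. Of 23 measured, 18 had a difference below 0 and 5 above, with a median of -0.62 against the control at passage 4 and -0.19 against the library labelled BRCA2 siRNA at passage 4. CITED2, a transcriptional coregulator, was at -1.72, BCL6, a repressor, at -1.04 and the insulin receptor substrate IRS2 at -0.84, while the stress-induced SESN3 was at 0.09 and catalase (CAT) at 0.52. Without EGF the members' median lay 0.39 (A) and 0.74 (B) above the mean of the passage 6 controls, and at passage 4 it lay 0.63 above.

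Fatty acid synthesis and desaturation genes, listed after the rise of ELOVL6 was seen and likewise untested as a group, had 12 of 14 measured members above 0 and a median of 0.51. ELOVL6 is counted in the group, at 1.85, so the count and median in part restate that choice. Fatty acid synthase (FASN) differed by 1.09, the citrate lyase ACLY by 1.03, the desaturase FADS2 by 1.12 and the desaturase SCD by 0.99, while FADS3 was at -0.25 and the malic enzyme ME1 at -0.18. Against the library labelled BRCA2 siRNA at passage 4 the median was 0.43. There FASN was at 0.10, ACLY at -0.05, FADS2 at 0.49 and SCD at 0.45.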
